A study of Homo sapiens with 9 samples.

Results

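The genes described here make and use UDP-N-acetylglucosamine (UDP-GlcNAc), the sugar donor of the hexosamine pathway, and they comprise 8 of the 60671 rows of the deposited table. They were chosen by gene symbol: GFPT1, GFPT2, GNPNAT1, PGM3, UAP1, NAGK, OGT and OGA. Expression was measured by sequencing polyadenylated RNA from AC16, a human cell line made by fusion of cells from the heart ventricle with a fibroblast line. There were 9 libraries, 3 from low glucose, 3 from high glucose and 3 from high glucose plus the plant flavonoid chrysin. None of the 9 libraries had chrysin in low glucose, and the glucose concentrations, dose and exposure were not given in the sources used here. All samples carry the label of a cardiomyocyte line. Nothing in the labels ties replicates to separate cultures, so a p-value here refers to library-to-library spread alone, possibly technical spread.

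The hexosamine pathway branches off glycolysis at fructose 6-phosphate, to which GFPT1 or GFPT2 transfers an amino group from glutamine in the rate-limiting step. GNPNAT1 then acetylates the amino sugar, PGM3 moves its phosphate, and UAP1 joins it to UTP to give UDP-GlcNAc, while NAGK returns salvaged N-acetylglucosamine to the pathway. OGT uses UDP-GlcNAc to attach single sugars to serines and threonines of nuclear and cytoplasmic proteins, and OGA removes them. In the diabetic heart this modification is studied as a link between glucose supply and protein function.

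The promoters of the 2 amidotransferases and of the 2 O-GlcNAc cycling enzymes are shown because the members of each pair differed in how their transcripts moved. Each is the stretch from 250 to 51 bases before the gene's start in RefSeq (GRCh38.p14), written 5′ to 3′ along the gene, with CCACG on either strand in capitals. CCACG is the last part of the endoplasmic reticulum (ER) stress response element, to which XBP1 and ATF6 can bind. The windows are chr2:69387278-69387477 (minus strand) for GFPT1, chr5:180353387-180353586 (minus) for GFPT2, chrX:71532854-71533053 (plus) for OGT and chr10:101818495-101818694 (minus) for OGA.
GFPT1: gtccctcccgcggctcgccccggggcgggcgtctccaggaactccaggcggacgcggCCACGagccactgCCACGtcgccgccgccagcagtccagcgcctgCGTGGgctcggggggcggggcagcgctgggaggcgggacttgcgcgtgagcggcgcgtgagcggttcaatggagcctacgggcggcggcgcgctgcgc
GFPT2: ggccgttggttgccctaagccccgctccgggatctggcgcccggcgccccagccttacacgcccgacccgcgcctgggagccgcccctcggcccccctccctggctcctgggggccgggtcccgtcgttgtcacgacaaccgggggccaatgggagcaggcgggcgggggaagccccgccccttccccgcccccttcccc
OGT: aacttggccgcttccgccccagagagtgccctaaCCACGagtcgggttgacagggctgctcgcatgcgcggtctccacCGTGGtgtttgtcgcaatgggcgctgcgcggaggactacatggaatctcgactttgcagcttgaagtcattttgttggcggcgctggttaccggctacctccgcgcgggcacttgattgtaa
OGA: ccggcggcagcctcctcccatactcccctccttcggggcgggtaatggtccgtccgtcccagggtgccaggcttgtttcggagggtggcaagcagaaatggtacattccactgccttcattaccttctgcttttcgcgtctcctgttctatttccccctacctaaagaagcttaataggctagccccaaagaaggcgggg

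The search covered the whole 250 bases before each start. CCACG was present 3 times before GFPT1 and 2 times before OGT, and was not found before GFPT2 or OGA. It occurs in 33.5% of all 35116 such windows in the RefSeq table, and in 6 of the 12 windows of the 8 genes (UAP1 has 3 starts, and NAGK and PGM3 have 2 each). Those 6 windows belong to GFPT1, OGT, NAGK, PGM3 and UAP1, and GNPNAT1 had no match. PGM3 rose in high glucose (below), as did GFPT2 and OGA. For PGM3 there were 3 matches in the window starting at 83193266 and 0 in that starting at 83193901. A link between CCACG and the changes was not tested. The full ER stress response element, the unfolded protein response core TGACGTGG, the E-box CACGTG, the carbohydrate response element (a pair of E-boxes) and the ATF4 element TGATGNAA were searched on both strands as well. None was found in these 12 windows, against 0.074%, 0.612%, 6.34%, 0.00285% and 3.14% of all windows. These are matches of letters in a short window. CCACG also lies within the full stress element and overlaps TGACGTGG read on the other strand, and the single E-box lies within the carbohydrate response element.

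Across the series, 16996 genes were tested, and whole reads recovered from the values came to 18171842 to 23024300 per library. Each of the 8 genes passed the filter on low values (a mean of at least 0.5 FPKM, fragments scaled by transcript length and library size, in a group) in every group, with 353 to 7233 recovered reads per library. High glucose library 1 lay somewhat apart from its replicates: its root mean square log2 difference to them was 0.157 and 0.164, against 0.126 to 0.148 for the other replicate pairs. Mitochondrially encoded genes took 2.79% to 3.04% of reads without chrysin and 3.80% to 3.89% with it. With scaling that leaves them out, OGT in chrysin against low glucose was the 1 member value whose call changed. Of 15 cardiomyocyte markers only GATA4 and NPPB reached 1 FPKM in any library, and MYBPC3, MYL2, PLN and NKX2-5 were at 0 throughout, whereas all 11 fibroblast markers reached that level. Of 6 endothelial markers TEK alone did, and of 5 leukocyte markers CD14 and PTPRC. The summed FPKM of the fibroblast markers was 7710 to 8010 under low glucose, 9100 to 9570 under high glucose and 6370 to 6540 when chrysin was added. In such bulk RNA, fewer cells of a type and less RNA per cell cannot be told apart.

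Fold changes are differences of log2(FPKM + 0.5), a scale that understates changes of low genes, and adjusted p-values come from limma with Benjamini-Hochberg adjustment over all 16996 genes. In high against low glucose 3 of the 8 genes rose (OGA, GFPT2, PGM3), 2 fell (GFPT1, UAP1) and 3 did not pass the test (GNPNAT1, NAGK, OGT). Of all tested genes, 23.5% were called in that comparison, 14.6% higher and 8.91% lower. Higher genes were 62.2% of the calls, or 51.9% with median-of-ratios scaling. With chrysin added to high glucose, 5 of the 8 fell (GFPT2, NAGK, OGA, OGT, GNPNAT1) and GFPT1 rose by a small margin, where 45.8% of all tested genes were called (20.9% lower and 24.9% higher). High glucose with chrysin against low glucose gave 2 higher (OGA, PGM3) and 6 lower, against 51% of all tested genes called (29.7% higher and 21.3% lower). The median log2 fold change of the 8 genes was 0.05, -0.19 and -0.19 in the 3 comparisons, beside 0.02, 0.03 and 0.05 over all tested genes. Since each group enters a pair of the comparisons, the 3 sets of values are not independent.

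**Figure D1:**
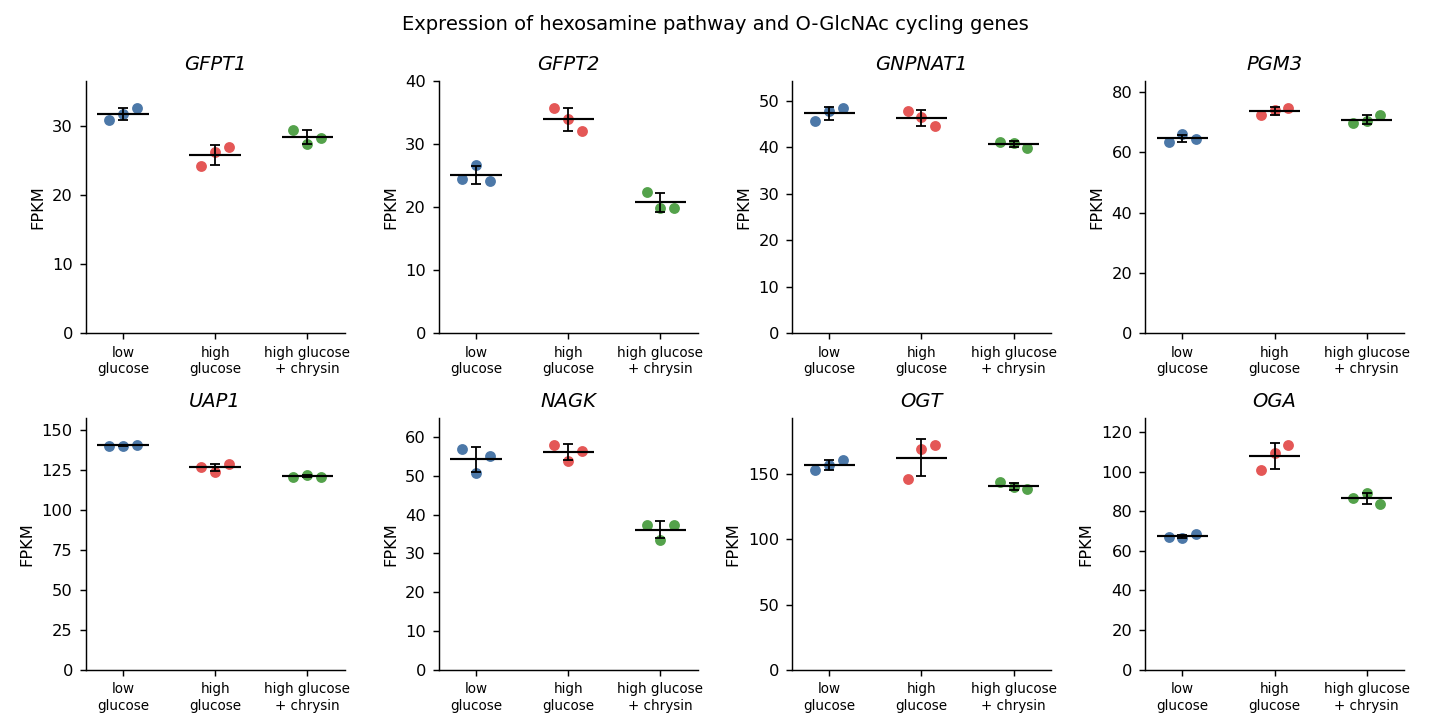
FPKM of the 8 genes (vertical axes, from 0) in the 9 libraries, by group (horizontal axes). Points are libraries, horizontal lines are group means and bars are SD (n = 3). OGA and GFPT2 stand highest in high glucose, NAGK is lowest with chrysin, and OGT varies most among the high glucose libraries.

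GFPT1 (chromosome 2, 69319769 to 69387254, minus strand, hg38) is the widely expressed amidotransferase. Its FPKM was 30.8, 31.7 and 32.6 under low glucose (libraries 1 to 3 in order, here and below), 24.1, 26.2 and 27.0 under high glucose and 29.4, 27.4 and 28.2 when chrysin was added. All low glucose libraries lay above all others, and the chrysin libraries lay above those of high glucose alone. GFPT1 fell in high glucose by 18.7% (log2 fold change -0.30, SE 0.05, adjusted p = 0.0018). The difference was smaller without high glucose library 1 (-0.25, adjusted p = 0.004).

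With chrysin GFPT1 was 1.10-fold higher than in high glucose (0.14, SE 0.05, adjusted p = 0.045), a call lost in 11 of 18 alternatives. Its adjusted p was 0.055, 0.061 and 0.055 when low glucose library 1, 2 or 3 was left out. Leaving out high glucose library 1 or 2 gave 0.13 and 0.065, and leaving out chrysin library 1 or 3 gave 0.14 and 0.091. Its log2 fold change was 0.09 without high glucose library 1 and 0.11 without chrysin library 1. The call was also lost with no filter (0.073), median-of-ratios scaling (0.082, at a log2 fold change of 0.12), the replicate number as a block (0.06) and only the groups compared (0.076). Against low glucose GFPT1 with chrysin stood at -0.16 (adjusted p = 0.02), and this call did not hold without low glucose library 3 (0.072) or chrysin library 2 (0.075) or 3 (0.053).

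GFPT2 (chromosome 5, 180300690 to 180353387, minus strand), the second amidotransferase, moved the other way. In low glucose its FPKM was 24.4, 26.7 and 24.1. High glucose libraries held 35.7, 34.1 and 32.1, and chrysin libraries 22.4, 19.8 and 19.9. The 3 groups did not overlap, with high glucose on top and chrysin at the bottom. GFPT2 rose 1.35-fold in high glucose (0.43, SE 0.06, adjusted p = 0.00081), a change larger than that of 89.3% of tested genes. With chrysin it fell by 39.0% (-0.70, SE 0.06, adjusted p = 8e-06), to below its low glucose level (-0.27, adjusted p = 0.0041). The summed fibroblast markers given above were also highest in high glucose and lowest with chrysin. Much of that sum is the collagen marker COL1A1, whose mean FPKM was 3710 (low glucose), 5140 (high glucose) and 2900 (chrysin added). The order of the sum may therefore be that of COL1A1, and the sum without it was not examined. Of the 11 fibroblast markers, 3 rose and 2 fell in high glucose, and 0 rose and 9 fell with chrysin against high glucose. Of all tested genes, 14.6% rose and 8.91% fell in the former comparison, and 24.9% rose and 20.9% fell in the latter. The part of these markers in the GFPT2 values was not tested.

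The isozymes moved in opposite directions with glucose. The sum of their FPKM was 56.8 ± 1.56 under low glucose, 59.7 ± 0.61 under high glucose and 49.1 ± 2.44 when chrysin was added (SD, n = 3). The direction of the small difference with glucose depends on the length that FPKM divides by. Per kilobase of the longest transcript the mean sum was 27.03 under low glucose, 26.15 under high glucose and 23.64 when chrysin was added, and over all exons it was 23.95, 22.17 and 21.06. The mean sum was lowest with chrysin under each of the 3 lengths, and the sums were not tested. The GFPT2 to GFPT1 ratio of FPKM was 0.793, 0.845 and 0.741 under low glucose, 1.48, 1.30 and 1.19 under high glucose and 0.764, 0.725 and 0.705 when chrysin was added. High glucose libraries lay above all the others, whereas the low glucose and chrysin libraries overlapped. The difference in mean log2 ratio was 0.74 for high against low glucose and -0.85 for chrysin against high glucose. Each had an exact two-sided permutation p of 0.1, the smallest that 3 against 3 libraries allow, and 0.12 after adjustment over 6 ratio tests. For chrysin against low glucose the difference was -0.12 (exact permutation p = 0.2, adjusted 0.2).

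A ratio of levels between genes depends on the length that FPKM divides by. The length implied by reads and FPKM was 953 bases for GFPT2 and 5301 for GFPT1, close to the mean of all annotated transcripts for GFPT2 (959) and above it for GFPT1 (4621). The longest transcripts have 3093 and 8703 bases. Per kilobase of the longest transcript the mean GFPT2 to GFPT1 ratio was 0.401 under low glucose, 0.67 under high glucose and 0.37 when chrysin was added, with GFPT2 below GFPT1 in every group. Whether GFPT2 exceeds GFPT1 in high glucose turns on the length used, while the change of the ratio between groups does not.

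**Figure D2:**
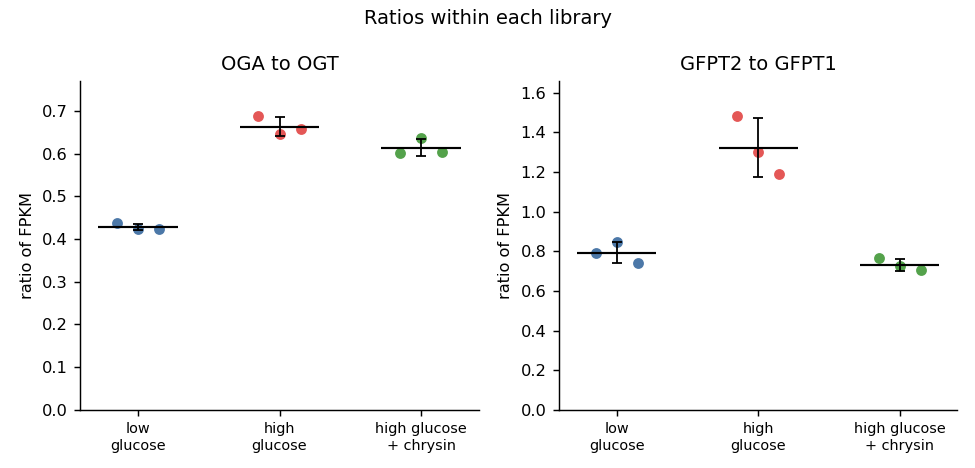
Ratio of FPKM within each library (vertical axes, from 0) for OGA to OGT and for GFPT2 to GFPT1, by group. Points are libraries, lines are means and bars are SD (n = 3). The OGA to OGT ratio stays high with chrysin (0.601 to 0.637), while the GFPT2 to GFPT1 ratio lies at 0.705 to 0.764.

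GNPNAT1 (chromosome 14, 52775194 to 52791668, minus strand), the acetyltransferase, had FPKM of 45.7, 47.8 and 48.5 under low glucose, 47.9, 46.6 and 44.6 under high glucose and 41.1, 41.0 and 40.0 when chrysin was added. The low and high glucose libraries overlapped and the difference missed the threshold (-0.03, SE 0.04, adjusted p = 0.64). All chrysin libraries lay below the other 6, and GNPNAT1 fell against high glucose by 12.3% (-0.19, SE 0.04, adjusted p = 0.0025) and against low glucose (-0.22, adjusted p = 0.00081). GNPNAT1 shares 1426 exonic bases with the antisense gene AL139317.3, which reached at most 1.28 FPKM. With the strand setting of the counting unknown, reads of the pair cannot be told apart.

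PGM3 (chromosome 6, 83161150 to 83193936, minus strand), the phosphoacetylglucosamine mutase, was the 1 gene of the de novo steps besides GFPT2 to rise in high glucose. Its FPKM was 63.4, 65.9 and 64.4 under low glucose, 72.3, 73.9 and 74.7 under high glucose and 69.6, 70.3 and 72.4 when chrysin was added. Low glucose lay below both other groups, which overlapped each other. PGM3 rose 1.14-fold (0.19, SE 0.03, adjusted p = 0.0016), remained higher than in low glucose with chrysin (0.13, adjusted p = 0.0045), and did not pass between chrysin and high glucose (-0.06, SE 0.03, adjusted p = 0.16). With median-of-ratios scaling the difference between chrysin and low glucose was 0.08 (adjusted p = 0.044). It shares 1087 exonic bases with DOP1A on the other strand, listed at up to 4.20 FPKM.

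UAP1 (chromosome 1, 162561506 to 162599842, plus strand) makes UDP-GlcNAc. Low glucose libraries held 140.2, 140.3 and 140.9 FPKM, high glucose libraries 127.2, 124.1 and 128.8, and chrysin libraries 120.9, 121.8 and 120.8. The groups did not overlap. UAP1 fell by 9.76% in high glucose (-0.15, SE 0.02, adjusted p = 0.0018) and by 13.7% with chrysin against low glucose (-0.21, adjusted p = 3.9e-05). Between chrysin and high glucose UAP1 missed the threshold (-0.06, SE 0.02, adjusted p = 0.056). It passed with median-of-ratios scaling (-0.08, adjusted p = 0.017) and without high glucose library 2 (-0.08, adjusted p = 0.039).

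NAGK (chromosome 2, 71064344 to 71079805, plus strand), the kinase of the salvage route, differed with chrysin and not detectably with glucose. Its FPKM was 56.9, 50.7 and 55.2 under low glucose, 58.0, 53.9 and 56.5 under high glucose and 37.3, 33.5 and 37.4 when chrysin was added. The low and high glucose libraries overlapped (0.05, SE 0.06, adjusted p = 0.58), and the chrysin libraries lay well below both. NAGK fell with chrysin by 35.7% against high glucose (-0.63, SE 0.06, adjusted p = 6.7e-06) and by 33.5% against low glucose (-0.58, SE 0.06, adjusted p = 8.4e-06). Beside GFPT2 this was the largest change among the 8 genes in the chrysin against high glucose comparison, exceeding that of 87.7% of tested genes.

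**Figure D3:**
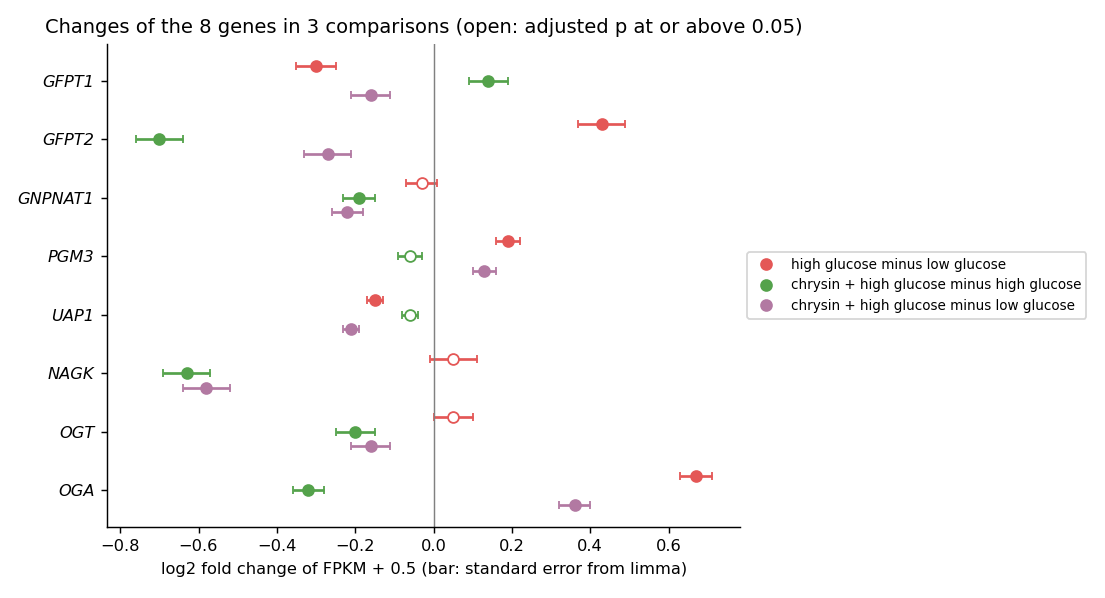
Log2 fold change of FPKM + 0.5 (horizontal axis) for the 8 genes (vertical axis) in the 3 comparisons, with standard errors from limma as bars. Filled points have an adjusted p under 0.05. OGA has the largest rise in high glucose (0.67), and GFPT2 (-0.70) and NAGK (-0.63) the largest falls with chrysin.

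OGT (X chromosome, 71533083 to 71575897, plus strand), the transferase, had FPKM of 153.0, 157.4 and 160.9 under low glucose, 146.3, 169.3 and 172.7 under high glucose and 143.9, 140.0 and 138.9 when chrysin was added. High glucose library 1 was lower than any low glucose library, while libraries 2 and 3 were above them all. OGT did not pass in high against low glucose (0.05, SE 0.05, adjusted p = 0.58), but passed without high glucose library 1 (0.12, adjusted p = 0.015). With chrysin it fell by 13.5% against high glucose (-0.20, SE 0.05, adjusted p = 0.0097), and by more without high glucose library 1 (-0.28, adjusted p = 5.6e-05). The difference from low glucose (-0.16, SE 0.05, adjusted p = 0.031) was called as well. That call failed on removal of low glucose library 2 (0.072) or 3 (0.096) or of chrysin library 2 (0.078) or 3 (0.087), with no filter (0.081) and with scaling that leaves out mitochondrially encoded genes (0.068).

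OGA (chromosome 10, 101784443 to 101818465, minus strand), the hydrolase that removes O-GlcNAc, showed the largest glucose response of the 8 genes. It was at 66.9, 66.6 and 68.3 FPKM under low glucose, 100.6, 109.3 and 113.5 under high glucose and 86.5, 89.2 and 83.8 when chrysin was added. The 3 groups were fully separate, with the chrysin libraries between the other groups. OGA rose 1.60-fold in high glucose (0.67, SE 0.04, adjusted p = 3.5e-06), more than 96.4% of tested genes changed. With chrysin it fell by 19.8% from that level (-0.32, SE 0.04, adjusted p = 0.00017), and it remained 1.29-fold above low glucose (0.36, SE 0.04, adjusted p = 5.1e-05). Leaving out high glucose library 1 gave 0.72 and -0.36 for the comparisons with high glucose, both still called.

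Within libraries, the OGA to OGT ratio of FPKM was 0.437, 0.423 and 0.424 under low glucose, 0.688, 0.646 and 0.658 under high glucose and 0.601, 0.637 and 0.603 when chrysin was added. This ratio does not depend on library scaling, and high glucose library 1 did not stand below its replicates in it. The mean log2 ratio was higher than in low glucose by 0.63 in high glucose and by 0.52 with chrysin. Chrysin against high glucose gave a difference of -0.11. In each of the 3 pairs the libraries did not overlap (exact two-sided permutation p = 0.1, the smallest possible, adjusted 0.12). OGA stayed below OGT in FPKM in every library, but per kilobase of the longest transcript (5155 bases for OGA, 7243 for OGT) the mean ratio was 0.678, 1.05 and 0.972 in the same order of groups.

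By FPKM the order in low glucose was OGT, UAP1, OGA, PGM3, NAGK, GNPNAT1, GFPT1 and GFPT2. No neighbours in that order overlapped, the nearest being OGA at 67.3 ± 0.88 and PGM3 at 64.6 ± 1.26 (SD, n = 3). In high glucose GFPT2 (34.0 ± 1.82) and GFPT1 (25.8 ± 1.48) changed places. With chrysin GNPNAT1 (40.7 ± 0.63) stood above NAGK (36.1 ± 2.19), and GFPT1 again above GFPT2. Per kilobase of the longest transcript UAP1 led instead (90.7 in low glucose, against 40.2 for OGT, scaled likewise to library size) and GFPT2 was again lowest (7.73).

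Non-overlap between groups was seen for 5 of the 8 genes in high against low glucose, 7 in chrysin against high glucose and 8 in chrysin against low glucose. Groups did not overlap for 37.9%, 54.3% and 60% of all tested genes in these comparisons.

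Around the 8 genes, 5 lists were counted, for which the shares of all tested genes are 14.6% higher and 8.91% lower with glucose, and 24.9% higher and 20.9% lower with chrysin against high glucose. Of 13 supply genes for glucose, glutamine and acetyl-CoA, 3 rose and 3 fell in high against low glucose (median -0.00), and 2 (15.4%) rose and 9 (69.2%) fell with chrysin against high glucose (median -0.23). SLC2A1, the basal glucose transporter, had 127.2 FPKM in low glucose and 68.0 with chrysin, and it fell against high glucose (-0.93, SE 0.03, adjusted p = 1.9e-08). It did not pass with glucose (0.03, adjusted p = 0.57). The other glucose transporter listed, SLC2A3, was the lower, at 46.1 FPKM in low glucose. SLC2A3 fell in high glucose (-0.24, adjusted p = 0.0089) and with chrysin against high glucose (-0.59, adjusted p = 9.2e-06). Hexokinase HK2 fell in both comparisons (-0.36, adjusted p = 0.00034, and -0.62, adjusted p = 2.1e-06). The other hexokinase listed, HK1, was the higher, at 160.5 FPKM in low glucose against 32.6 for HK2. HK1 rose in high glucose (0.15, adjusted p = 0.0043) and did not pass with chrysin against high glucose (-0.06, adjusted p = 0.11). The glutamine carriers SLC1A5 and SLC38A2 fell with chrysin by 0.59 and 0.67 on the log2 scale (adjusted p = 2.6e-07 and 9e-07). SLC38A2 had already fallen in high glucose (-0.26, adjusted p = 0.0016).

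Among 12 genes of amino sugar turnover 11 were tested. In high glucose 1 rose and 1 fell, and with chrysin against high glucose 2 (18.2%) rose and 6 (54.5%) fell (median -0.18). The 2 that rose were GNPDA1 (0.46, adjusted p = 4.7e-06), a deaminase that turns glucosamine 6-phosphate back into fructose 6-phosphate, and UAP1L1 (0.58, adjusted p = 2.4e-05), a relative of UAP1. UAP1L1 had fallen in high glucose (-0.26, adjusted p = 0.01). HEXA, which encodes a lysosomal enzyme subunit, fell with chrysin (-0.22, adjusted p = 0.00093).

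Of 22 users and transporters of UDP-GlcNAc, 20 were tested. In high glucose 5 rose and 1 fell, and with chrysin against high glucose 2 rose and 5 fell (medians 0.07 and -0.06). The 5 that fell with chrysin are 25% of those tested, near the 20.9% of all genes. The 5 that rose in high glucose are also 25%, against 14.6% of all genes. MGAT1, which opens the branching of N-glycans, rose with glucose (0.31, adjusted p = 0.00019) and then fell with chrysin (-0.50, adjusted p = 1.9e-06). MGAT5, which adds a later branch, rose with chrysin (0.48, adjusted p = 7.8e-05). HAS2, the hyaluronan synthase, fell from 9.28 to 4.85 FPKM in high glucose (-0.87, SE 0.08, adjusted p = 3.1e-05) and stood at 5.59 with chrysin (0.18 against high glucose, adjusted p = 0.072, or 0.20 and 0.024 with limma voom and 0.25 and 0.026 without chrysin library 1). GCNT1, an O-glycan branching enzyme, fell with chrysin (-0.47, adjusted p = 0.00013).

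Known partners or substrates of OGT comprised 10 genes, all tested. With glucose 2 rose and none fell, and with chrysin against high glucose 1 rose and 6 (60.0%) fell (medians 0.08 and -0.19). BAP1, a deubiquitinase, rose with chrysin (0.29, adjusted p = 0.00019). Its smaller rise in high glucose (0.16, adjusted p = 0.018) failed on removal of low glucose library 2 (0.068), low glucose library 3 (0.052) or high glucose library 1 (0.05). TRAK1, a mitochondrial transport adaptor, SIN3A, a corepressor scaffold, and ASXL1, the partner of BAP1, fell with chrysin (-0.44, -0.40 and -0.22, adjusted p = 3e-05, 9.5e-05 and 0.00017).

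Regulators linked to these genes comprised 13 genes, of which 12 were tested: 3 rose and 4 fell in high glucose, and 2 rose and 7 (58.3%) fell with chrysin against high glucose. XBP1, an unfolded protein response factor known to induce GFPT1, fell from 125.8 to 74.4 FPKM in high glucose (-0.75, SE 0.03, adjusted p = 1.1e-07) and to 57.4 with chrysin (-0.37, adjusted p = 4.8e-06). ATF4 also fell in both comparisons (-0.55 and -0.14, adjusted p = 2.4e-07 and 0.00093), as did the ER chaperone HSPA5 (-2.14 and -0.21, adjusted p = 8.8e-12 and 0.00017) and DDIT3 (-3.35 and -0.94, adjusted p = 2.4e-10 and 1.6e-06). ATF6 did not pass in either comparison (-0.11 and 0.12, adjusted p = 0.15 and 0.076). In high glucose GFPT1 and UAP1 fell, PGM3 rose and GNPNAT1 did not pass. With chrysin XBP1, ATF4, HSPA5 and DDIT3 fell further, while GFPT1 was higher than in high glucose (0.14, a call lost in 11 of 18 alternatives). These are transcript levels, and neither the activity of these regulators nor their part in the members' values was tested. TXNIP, a glucose-induced arrestin, rose in high glucose (3.64) and fell with chrysin (-2.25, adjusted p = 1.2e-09) to 16.3 FPKM, above its low glucose level of 5.91. OGA and TXNIP shared the order low glucose, chrysin, high glucose, as did the group means of PGM3. The share of all tested genes with this order was not counted.

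**Figure D4:**
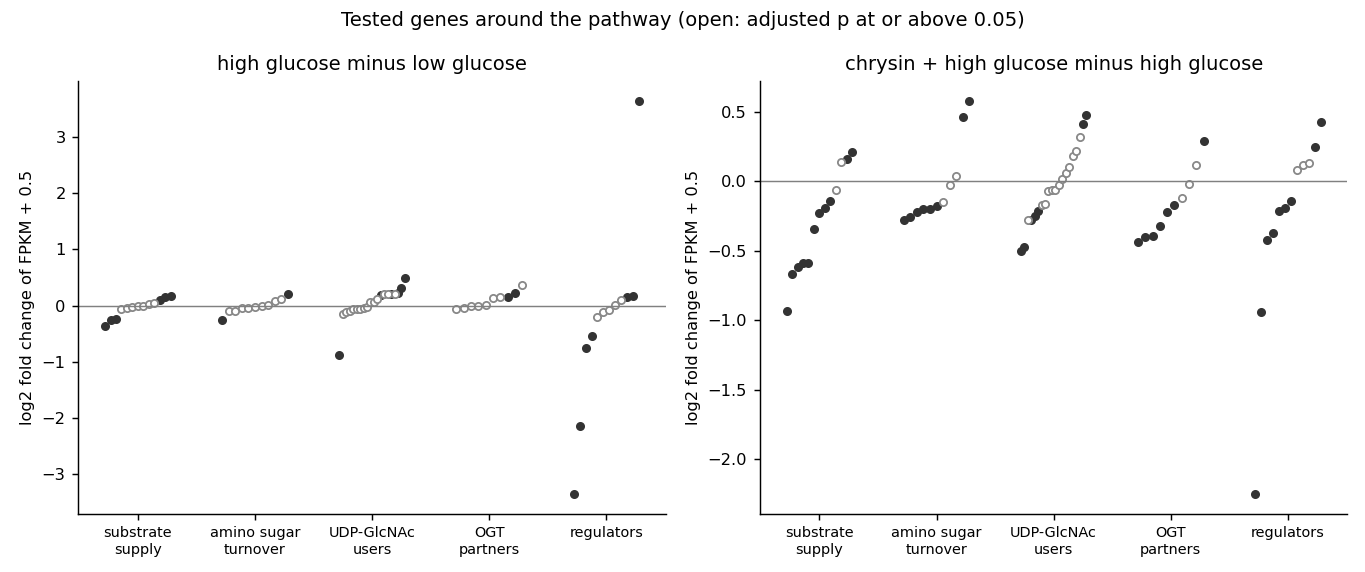
Log2 fold change of FPKM + 0.5 (vertical axes) for the tested genes of 5 lists around the pathway (horizontal axes), in high against low glucose (left) and chrysin added to high glucose (right). Each point is a gene, sorted by value within its list, and filled points have an adjusted p under 0.05. With chrysin 9 of 13 supply genes lie below 0 as filled points, against 3 of 13 with glucose.

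Profiles most like those of OGA, GFPT2 and NAGK were sought among 9833 genes at or above a mean level of 5 FPKM, as the root mean square difference of mean-centred log2 values over the 9 libraries. For OGA the nearest 5 were FAM111B (0.059), PPP1R10 (0.075), APAF1 (0.08), KREMEN1 (0.081) and KLF10 (0.082). KLF10, a transcription factor, had log2 differences of 0.62 in high glucose and -0.26 with chrysin, near the 0.67 and -0.32 of OGA. GFPT2 was nearest to ARHGEF40 (0.053), FHOD1 (0.054), AK4 (0.064), COL1A1 (0.068) and JUN (0.076). COL1A1, the collagen I chain and one of the fibroblast markers, differed by 0.47 and -0.82 at mean levels of 3710, 5140 and 2900 FPKM. Since COL1A1 is much of the summed fibroblast markers, its likeness to GFPT2 and that of the sum are not separate observations. NAGK was nearest to COX20 (0.043), RAB11B (0.054), UNK (0.055), RAB28 (0.059) and PNPLA8 (0.061), all of which lay between -0.55 and -0.66 with chrysin and between -0.02 and 0.08 with glucose. These genes were picked for their likeness, so the values are a description.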

How the data were processed

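Polyadenylated RNA of 9 AC16 libraries was assigned to 3 groups of 3 from the treatment labels. The deposited table holds FPKM, a unit read from its values, and how the authors ran each tool, the annotation and the strand setting were not given in the sources used here. Per the submitters' processing notes, HISAT2 (2.2.1), HTSeq (0.13.5), StringTie (2.2.1) and fastp (0.23.4) were used with the hg38 build. Whole reads were recovered from the FPKM steps for all 28230 genes above 0 in at least 2 libraries (tolerance 0.002 reads). The smallest matching whole numbers were taken, so the true reads of a gene may be a common multiple of those recovered. A further 4119 genes, above 0 in 1 library, were given 1 read each. FPKM divides by a length that affects levels, ratios and sums across genes, and not the fold change of a single gene between groups.

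All 9 libraries entered 1 limma 3.58.1 fit (R 4.3.3, mean-variance trend) of log2(FPKM + 0.5), over the 16996 genes whose mean reached 0.5 FPKM in a group. Genes were called at a two-sided Benjamini-Hochberg adjusted p under 0.05. The code was tested on simulated data. The fit was repeated leaving out each library, with a replicate block, on only the groups compared, with median-of-ratios scaling, with a pseudocount of 0.1 or 1, without the filter or with 5 FPKM in its place, and on the recovered reads with limma voom, which called 4654, 8301 and 8984 genes. Scaling without mitochondrially encoded genes and other lengths were added after seeing the data.

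The members and gene lists were chosen with earlier results of these data known. Named were all 8 members, the 4 genes of each surrounding list with the smallest adjusted p in any comparison, XBP1, ATF4, HSPA5 and TXNIP, and the 5 nearest profiles of members called with an absolute log2 fold change of at least 0.5. Other genes were named for overlapping a member or as cell type markers. HK1 and SLC2A3 were named as the other hexokinase and glucose transporter listed, and ATF6 as a factor that can bind the stress element. A gene that this rule selects is not reported here. Positions came from GENCODE 29 on hg38, and promoters from RefSeq, in which all 8 symbols matched.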

Additional observations from a re-analysis of the deposited data

How the results depend on the processing

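All 108 counts of called genes and of called members under an alternative stayed within 1.5 times the reported count. Called genes ranged from 2971 to 4654 in high against low glucose, from 6279 to 8301 in chrysin against high glucose and from 6923 to 8984 in chrysin against low glucose. Called members ranged from 5 to 6, 5 to 6 and 6 to 8. Of 24 member values, 19 kept their direction and their side of the threshold in all 18 alternatives. The exceptions, given above, were GFPT1 (11 of 18 alternatives lost the call) and UAP1 (2 gained it) in chrysin against high glucose, GFPT1 (3 lost) and OGT (6 lost) in chrysin against low glucose, and OGT in high against low glucose (1 gained). No member value that passed the test changed sign. Same-numbered libraries of different groups did not deviate together (correlations of -0.015 to 0.008 over genes). This cannot decide whether the numbers pair the samples, since matched cultures may share little deviation, and the labels do not say. With the replicate block GFPT1 in chrysin against high glucose had an adjusted p of 0.06, which lost its call, and no other member's call changed. Permuting ratio labels within replicate numbers cannot go below an exact permutation p of 0.25. Of 1134 values for 21 surrounding genes, 1120 kept their side of the threshold, and none that passed changed sign. Changes of sign between values that did not pass were not counted.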
